A study of Mus musculus with 6 samples.

Results

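Purkinje cells are the output neurons of the cerebellar cortex, and 10 genes that mark them or carry their signals were described here in newborn mouse cerebellum. These were *Shh*, *Calb1*, *Car8*, *Pcp2*, *Pcp4*, *Itpr1*, *Rora*, *Foxp2*, *Ebf2* and *Plcb4*. They were chosen by symbol as known Purkinje cell genes, with *Shh* added as the mitogen that these cells send to granule neuron progenitors. All 10 were found among the 54532 genes of the count table, and all 10 were among the 17505 genes that passed the filter on low counts. No measured value of the 2 groups entered the choice of the genes, although earlier results of these data were known when the set was proposed.

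The study sequenced polyadenylated RNA from whole cerebella at postnatal day 1 in 6 bulk libraries, to ask which genes depend on the transcriptional regulator Tox3 in the cerebellum. The 3 control libraries, Ctrl1 to Ctrl3, came from littermates with the genotype Tox3f/f and no Cre. The other 3 libraries, cKO1 to cKO3, came from Nestin-cre;Tox3f/f mice. Both groups were therefore homozygous for the floxed allele, which was made from Tox3tm1a(KOMP)Mbp mice by a cross with mice carrying FLP. Nestin-Cre is active in neural progenitors throughout the nervous system, so the deletion was not limited to Purkinje cells or to granule neuron progenitors. Every cKO mouse and no Ctrl mouse carried the Cre transgene, and the transgene and the deletion cannot be told apart. Whether each library came from a separate animal is not given in the sources used here, so the p-values measure the spread between these libraries.

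Totals ranged from 15391854 to 17178478 counts per library. *Tox3* was counted at 63.0 to 64.4 CPM (reads per 1000000 of the TMM-normalized library total) in Ctrl and at 55.3 to 63.2 CPM in cKO, with a log2 fold change of -0.11 ± 0.06 (SE) and an adjusted p of 0.252, so the summed count of the gene does not check the labels. *Atoh1*, the proneural factor of granule neuron progenitors, separated the groups, at 30.9 to 32.6 CPM in Ctrl and 0.249 to 0.577 CPM in cKO. All 5 genes listed for cerebellar identity were detected in every library, at a summed 2463 to 2569 CPM in Ctrl and 1830 to 1938 CPM in cKO. By the rule given below 3 of the 5 were downregulated, against 3.63% of all genes tested. *Pax6* and *Zic1* of this list are also counted among the granule lineage markers. Y-chromosome genes were counted in Ctrl1, cKO1 and cKO3 and nearly absent from Ctrl2, Ctrl3 and cKO2, so both sexes were present in both groups.

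A Purkinje cell receives glutamate from granule neurons at synapses where metabotropic receptors act through Gq proteins and phospholipase C to release IP3, and IP3 opens receptor channels that let calcium out of the endoplasmic reticulum. Before those synapses form, the Purkinje cell secretes Sonic hedgehog, the signal that keeps granule neuron progenitors dividing in the layer above it. RORα, the product of *Rora*, is known as a transcription factor that Purkinje cells need to mature, and *Shh*, *Pcp2*, *Pcp4* and *Itpr1* are among the genes it acts on. Most of the genes described are also expressed by other neurons, and *Rora*, for example, is also expressed in interneurons of the molecular layer.

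Because RORα binds DNA at the letters AGGTCA, the 250 bases before a RefSeq start of each gene were searched for this hexamer on both strands. RefSeq start windows (GRCm38.p6) were matched for 4 of the 10 genes, *Pcp2*, *Pcp4*, *Rora* and *Plcb4*. The RefSeq start of *Plcb4* lies 536 bases inside the gene as counted here, so its window is within that gene and not before it. The hexamer was present once in the window of *Pcp2*, its first base lying 12 bases before the start, and once in that of *Pcp4*, 164 bases before the start. It was absent from those of *Rora* and *Plcb4*. Of all 32851 such windows in the mouse table, 14.0% held it. Neither CCCNNGGG, a site for EBF factors, nor CAGCTG, an E-box, was found on either strand in any of the 4 windows, and they were present in 11.8% and 13.0% of all windows. The matches describe the letters alone. The sequences with a match are shown 5′ to 3′ on the strand of the gene, with the hexamer or its reverse complement in capitals. For *Pcp2* they are the last 30 bases before the start (chr8:3625548-3625577, minus strand), since the rest of its window overlaps exons of a gene on the other strand, and for *Pcp4* the whole window (chr16:96467356-96467605, plus strand).
Pcp2: cttttaaaaggccttctcAGGTCAgagacc
Pcp4: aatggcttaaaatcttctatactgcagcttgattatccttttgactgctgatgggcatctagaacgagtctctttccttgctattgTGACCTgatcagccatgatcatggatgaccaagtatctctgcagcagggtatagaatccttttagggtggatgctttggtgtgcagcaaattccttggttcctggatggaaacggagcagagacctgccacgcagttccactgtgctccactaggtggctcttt

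Levels of the genes in controls can be compared on the FPKM scale, which divides by gene length. *Car8* was the most abundant at 126 ± 2.63 FPKM (SD, n = 3) in Ctrl and *Shh* the least at 1.43 ± 0.165 FPKM, an 88.3-fold range. Between them stood *Calb1* at 64.3 ± 4.26 FPKM, *Pcp4* at 24.2 ± 6.11, *Itpr1* at 23.8 ± 1.48, *Plcb4* at 18.3 ± 1.30, *Pcp2* at 17.6 ± 1.47, *Rora* at 11.4 ± 2.44, *Foxp2* at 6.42 ± 0.785 and *Ebf2* at 6.40 ± 0.750 FPKM. In this order 3 pairs of neighbours had overlapping ranges in both groups, namely *Pcp4* with *Itpr1*, *Plcb4* with *Pcp2*, and *Foxp2* with *Ebf2*. In cKO the order differed only within the last 2 of these pairs, and *Car8* at 196 ± 15.2 FPKM and *Shh* at 2.47 ± 0.333 FPKM remained at its ends, 79.5-fold apart.

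Of the 10 Purkinje cell genes, 5 rose in cKO, namely *Shh*, *Calb1*, *Car8*, *Pcp2* and *Itpr1*, and 0 of 10 fell. A gene was called upregulated or downregulated where its log2 fold change was beyond 0.5 and its p from the edgeR quasi-likelihood test, adjusted by Benjamini-Hochberg over all 17505 genes tested, was under 0.01. Of all genes tested, 3.03% were upregulated and 3.63% downregulated by this rule. Without the fold threshold, which adds *Ebf2* and *Plcb4*, 7 of the 10 were higher in cKO at an adjusted p under 0.01, against 6.55% of all genes tested. That number was 4 without Ctrl3 or without cKO1 and 3 without cKO3, and the number upregulated was also 3 without cKO3, namely *Calb1*, *Car8* and *Pcp2*. In 9 of the 10, all cKO libraries lay above all Ctrl libraries, against 20.4% of all genes tested, and *Rora* was the exception. At an unadjusted p under 0.05, 9 were higher and 0 lower, and DESeq2 called 6 upregulated and 0 downregulated. Their log2 fold changes ran from 0.37 to 0.78 with a median of 0.57, beside a median of -0.01 over all genes tested. Summed over the 10 genes, the level was 1718 to 1856 CPM in Ctrl and 2346 to 2874 CPM in cKO. In bulk RNA, more Purkinje cells in the tissue, or a larger share of them, and more RNA of these genes per cell cannot be told apart.

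**Figure D1:**
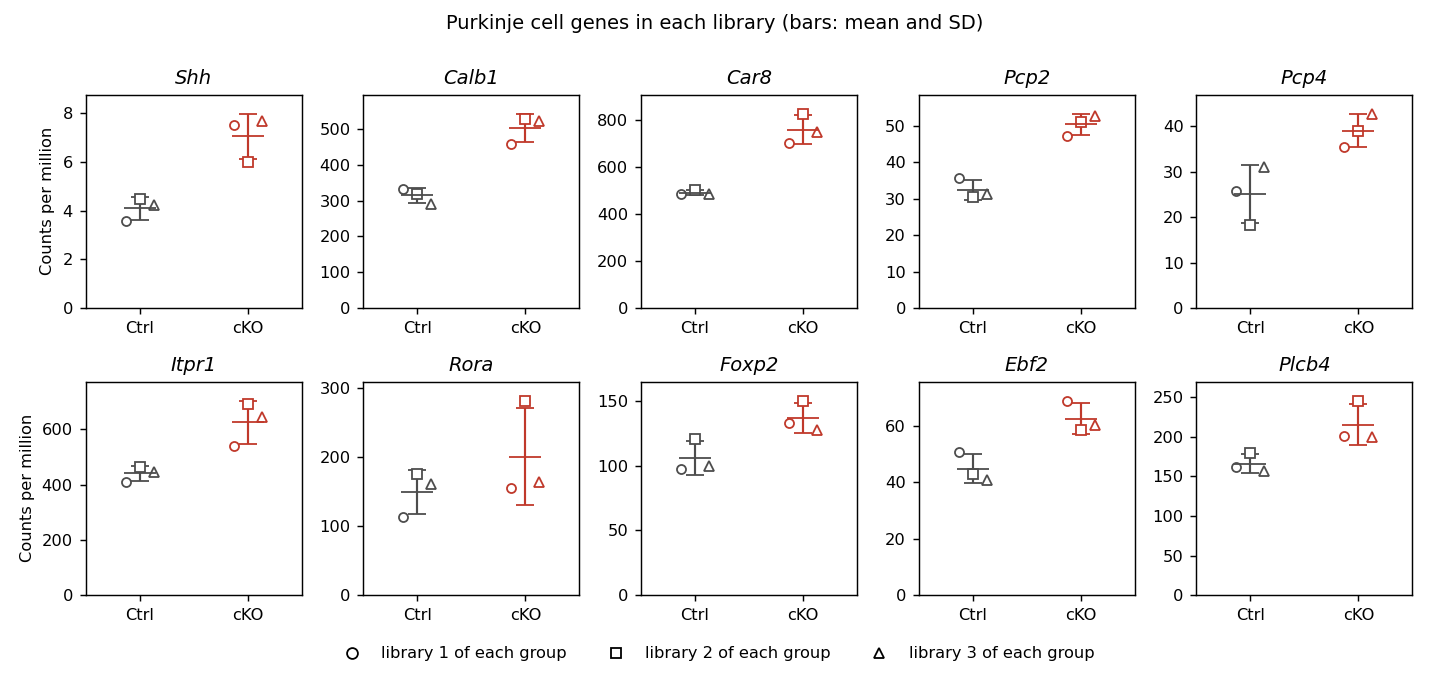
Levels in CPM of the 10 Purkinje cell genes in each of the 6 libraries, with Ctrl in grey and cKO in red, a symbol for each replicate number, and bars for the mean and SD of 3 libraries. The cKO libraries lie above the Ctrl libraries in 9 of the 10 panels, and in the *Rora* panel cKO2 stands at 281 CPM while cKO1 and cKO3 lie within the Ctrl range.

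*Shh* encodes the secreted ligand Sonic hedgehog (ENSMUSG00000002633, chromosome 5 of GRCm38, 28456815 to 28467256, minus strand). *Shh* was counted at 3.58, 4.49 and 4.24 CPM in Ctrl1, Ctrl2 and Ctrl3 and at 7.50, 5.996 and 7.66 CPM in cKO1, cKO2 and cKO3. All cKO libraries stood above all Ctrl libraries, with cKO2 the lowest of the cKO group. The log2 fold change was 0.78 ± 0.17 (SE), a 1.72-fold rise with a 95% interval of 1.32 to 2.24, and the adjusted p was 0.00829. These levels rested on 55, 69 and 66 reads in Ctrl and 130, 92 and 123 reads in cKO. The counting error alone gave Ctrl2 an exact 95% Poisson interval of 53.7 to 87.3 reads and cKO2 one of 74.2 to 113 reads, and these 2 intervals overlapped. The call was lost when any 1 of 5 libraries was left out. Without Ctrl1, Ctrl2, Ctrl3, cKO1 or cKO3 the log2 fold change was 0.69, 0.85, 0.80, 0.73 or 0.72 at an adjusted p of 0.0303, 0.0186, 0.0251, 0.0363 or 0.0354, and without cKO2 it was 0.89 at 0.00523. It was also lost with the FPKM values in place of counts, where the log2 fold change was 0.51 with a pseudocount of 1 and 0.74 with one of 0.1, at adjusted p of 0.0126 and 0.0138. A pair of genes on the opposite strand overlaps *Shh*, the antisense RNA *9530036O11Rik* with 36 reads over the 6 libraries and the lincRNA *Gm26894* with 25, together 11.4% of the number counted for *Shh*. Whether reads were counted by strand is not given in the sources used here, so how reads from sequence shared by overlapping genes were counted, or whether they were left out, is not known.

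*Calb1* encodes calbindin, the calcium buffer used to stain Purkinje cells (ENSMUSG00000028222, chromosome 4, 15881264 to 15908064, plus strand). *Calb1* was counted at 333, 319 and 292 CPM in Ctrl1 to Ctrl3 and at 456, 527 and 523 CPM in cKO1 to cKO3. The lowest cKO library, cKO1, was above the highest Ctrl library, Ctrl1. The log2 fold change was 0.68 ± 0.07 (SE), with an adjusted p of 0.00014.

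*Car8* encodes a carbonic anhydrase-related protein without enzyme activity that binds the IP3 receptor (ENSMUSG00000041261, chromosome 4, 8143362 to 8239041, minus strand). *Car8* was counted at 485, 502 and 484 CPM in Ctrl1 to Ctrl3 and at 702, 826 and 749 CPM in cKO1 to cKO3. The Ctrl libraries had a coefficient of variation of 2.04%, the smallest among the 10 genes, and the groups did not overlap. Its log2 fold change was 0.63 ± 0.06 (SE), with an adjusted p of 0.000104. The processed pseudogene *Gm11799* inside *Car8* held 79 reads over all libraries, 0.133% of the number counted for *Car8*.

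*Itpr1* encodes the main IP3 receptor of Purkinje cells (ENSMUSG00000030102, chromosome 6, 108213096 to 108551109, plus strand). *Itpr1* was counted at 411, 465 and 445 CPM in Ctrl1 to Ctrl3 and at 539, 690.1 and 644 CPM in cKO1 to cKO3. The groups did not overlap, and the log2 fold change of 0.50 ± 0.09 (SE) was just past the fold threshold, with an adjusted p of 0.00223. The call was lost without Ctrl1, Ctrl3, cKO2 or cKO3, at log2 fold changes of 0.46, 0.51, 0.44 and 0.48 and adjusted p of 0.00919, 0.0115, 0.00250 and 0.0119. The antisense RNA *Gm44040* inside *Itpr1* had 13 to 28 reads in the Ctrl libraries and 26 to 57 in the cKO libraries, in all 0.387% of the number counted for *Itpr1*.

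*Plcb4* encodes the phospholipase C beta that makes IP3 in many Purkinje cells (ENSMUSG00000039943, chromosome 2, 135659011 to 136014593, plus strand). *Plcb4* was counted at 162, 179 and 157 CPM in Ctrl1 to Ctrl3 and at 201, 245 and 199 CPM in cKO1 to cKO3. The groups did not overlap. The log2 fold change was 0.37 ± 0.08 (SE) with an adjusted p of 0.00921, so *Plcb4* passed the p threshold and not the fold threshold. The pass was lost without Ctrl1, Ctrl2, Ctrl3, cKO1 or cKO3, at an adjusted p of 0.0318, 0.0117, 0.0431, 0.0137 or 0.0131, and was kept without cKO2 at 0.00792.

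*Pcp4* encodes a small protein that binds calmodulin (ENSMUSG00000090223, chromosome 16, 96467606 to 96525793, plus strand). *Pcp4* was counted at 25.8, 18.4 and 31.0 CPM in Ctrl1 to Ctrl3 and at 35.4, 39.0 and 42.7 CPM in cKO1 to cKO3. The Ctrl libraries varied most among the 10 genes, with a coefficient of variation of 25.3%, and their highest, Ctrl3, was still below the lowest cKO library. Its log2 fold change of 0.64 ± 0.16 (SE) was as large as that of *Pcp2*, but the adjusted p of 0.0163 missed the threshold. Without Ctrl3 it was 0.82 at an adjusted p of 0.00788, past both thresholds. Without Ctrl2 it was 0.46, under the fold threshold, and without cKO3 it was 0.57 at an adjusted p of 0.0633.

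*Pcp2* encodes a modulator of G protein signalling known from Purkinje cells and retinal bipolar cells (ENSMUSG00000004630, chromosome 8, 3623371 to 3625545, minus strand). *Pcp2* was counted at 35.5, 30.4 and 31.4 CPM in Ctrl1 to Ctrl3 and at 47.2, 51.1 and 52.8 CPM in cKO1 to cKO3. The groups did not overlap, and the log2 fold change was 0.63 ± 0.08 (SE) with an adjusted p of 0.000607. *Pcp2* lies inside the span of *Pet100*, a mitochondrial assembly factor gene on the opposite strand, which held 697 reads over the 6 libraries, 17.6% of the number of *Pcp2*. *Pet100* had 95 to 125 reads in the Ctrl libraries and 109 to 135 in the cKO libraries, which overlapped.

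Among the transcription factors, *Rora* encodes the nuclear receptor RORα (ENSMUSG00000032238, chromosome 9, 68653786 to 69388246, plus strand). *Rora* was counted at 114, 175 and 161 CPM in Ctrl1 to Ctrl3 and at 156, 281 and 164 CPM in cKO1 to cKO3. Within each group the libraries were far apart, Ctrl1 being low and cKO2 high, and the groups overlapped. The log2 fold change was 0.42 ± 0.22 (SE) with a 95% interval of -0.07 to 0.91 and an adjusted p of 0.193. Without cKO2 it was 0.11, without Ctrl1 0.26, and without cKO1 0.57, none past the p threshold.

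*Foxp2* encodes a forkhead factor of Purkinje cells and other neurons (ENSMUSG00000029563, chromosome 6, 14901349 to 15441977, plus strand). *Foxp2* was counted at 97.3, 121 and 99.7 CPM in Ctrl1 to Ctrl3 and at 133, 150.0 and 127 CPM in cKO1 to cKO3. The groups did not overlap, although Ctrl2 came close to cKO3, and the log2 fold change was 0.37 ± 0.09 (SE) with an adjusted p of 0.0139, past neither threshold. Without Ctrl2 it was 0.47 at an adjusted p of 0.00383.

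*Ebf2* encodes an early B cell factor needed by a subset of Purkinje cells (ENSMUSG00000022053, chromosome 14, 67233292 to 67430918, plus strand). *Ebf2* was counted at 50.7, 43.0 and 40.6 CPM in Ctrl1 to Ctrl3 and at 68.7, 58.5 and 60.1 CPM in cKO1 to cKO3. The groups did not overlap. The log2 fold change of 0.48 ± 0.10 (SE), with an adjusted p of 0.00542, stood just under the fold threshold, and it was past both thresholds at 0.58 without Ctrl1 and at 0.54 without cKO2. Without Ctrl2, Ctrl3, cKO1 or cKO3 the p threshold was missed too, at an adjusted p of 0.0251, 0.0260, 0.0235 or 0.0153. The antisense RNA *Gm10860*, which overlaps the end of *Ebf2*, held 30 reads over the 6 libraries, 0.585% of the number counted for *Ebf2*.

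**Figure D2:**
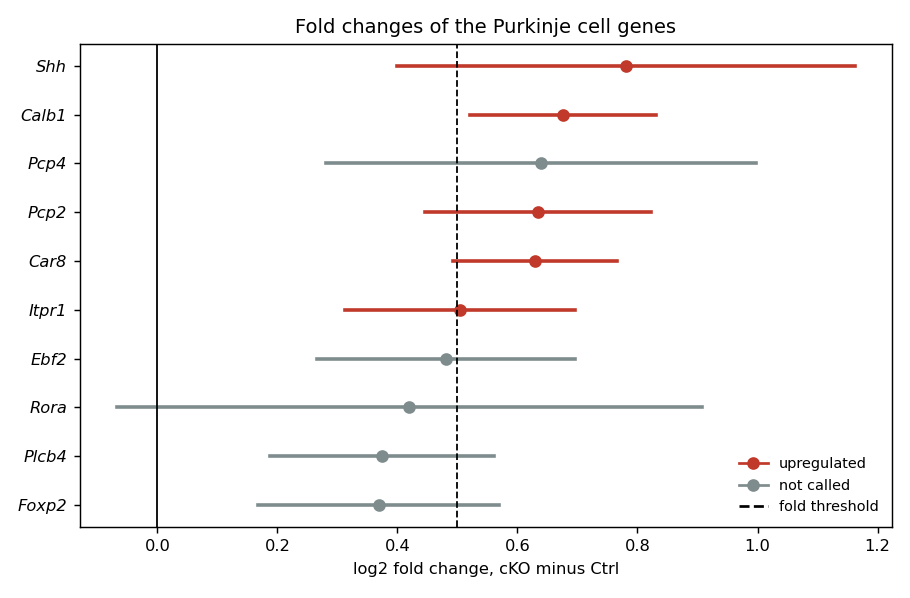
Log2 fold changes of the 10 Purkinje cell genes, cKO minus Ctrl, with 95% intervals from edgeR, the dashed line marking the fold threshold of 0.5. All 10 values lie between 0.37 and 0.78, and the interval of *Rora* alone reaches below 0.

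Since *Rora* varied within both groups, the libraries were also compared apart by their Y-chromosome reads. Among libraries with Y reads, *Rora* was 1.41-fold higher in cKO1 and cKO3 than in Ctrl1, and among those without it was 1.68-fold higher in cKO2 than in Ctrl2 and Ctrl3. All 10 genes were higher in cKO in both comparisons and none overlapped, though each comparison held 3 libraries and was not tested. A split of 1 library against 2 often separates without any group difference, and the share over all genes tested was not computed. With the Y-chromosome gene level as a covariate, the log2 fold change of *Rora* was 0.61 at an adjusted p of 2.06e-06, past both thresholds. The libraries also differed by gene span. The 539 tested genes that span at least 300 kb lay 0.05 above their group mean in Ctrl2 and in cKO2 (median log2 deviation) and 0.02 to 0.04 below it in Ctrl1, cKO1 and cKO3. The libraries below it are those with Y reads, so the fit with the Y covariate cannot tell sex and this difference in long genes apart. Between the groups, these long genes had a median log2 fold change of 0.10, against -0.01 for the other genes tested. Of the long genes 6.31% were upregulated, against 3.03% of all genes tested. *Rora*, *Foxp2*, *Plcb4* and *Itpr1* span 734, 541, 356 and 338 kb. With the trend in span removed, their log2 fold changes were 0.29, 0.26, 0.29 and 0.43, and *Itpr1* was then under the fold threshold. The adjusted p of *Rora* in that fit was 0.288. *Shh*, *Calb1*, *Car8* and *Pcp2* were upregulated in that fit too. The part of sex and of gene span in the values of *Rora* was not tested beyond these fits.

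To compare the genes with one another, the counts of each gene in a library were divided by those of *Calb1* in the same library. *Shh* amounted to 1.31% of the *Calb1* counts in Ctrl and 1.42% in cKO, a difference of 0.10 on the log2 scale (exact permutation test, two-sided, p = 0.5). *Car8*, *Pcp2* and *Pcp4* differed from their Ctrl ratio by -0.05, -0.04 and -0.01. *Foxp2* and *Plcb4* were the ratios without overlap between the groups, and both were lower in cKO, by -0.30 each on the log2 scale. Since *Calb1* itself rose by 0.68, these lower ratios stand for smaller rises than that of *Calb1*, and not for falls. How often such ratios lack overlap over all genes tested was not computed. *Foxp2* went from 33.8% to 27.3% of the *Calb1* counts and *Plcb4* from 52.9% to 42.9%. For both the exact two-sided p was 0.1, the smallest that 3 libraries against 3 can give, and the adjusted p over the 9 ratios was 0.45. The remaining ratios, of *Itpr1*, *Rora* and *Ebf2*, were lower by -0.18, -0.28 and -0.19 with overlap between the groups. All 9 ratios share the *Calb1* counts, and a p above the threshold does not show that a ratio was the same.

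**Figure D3:**
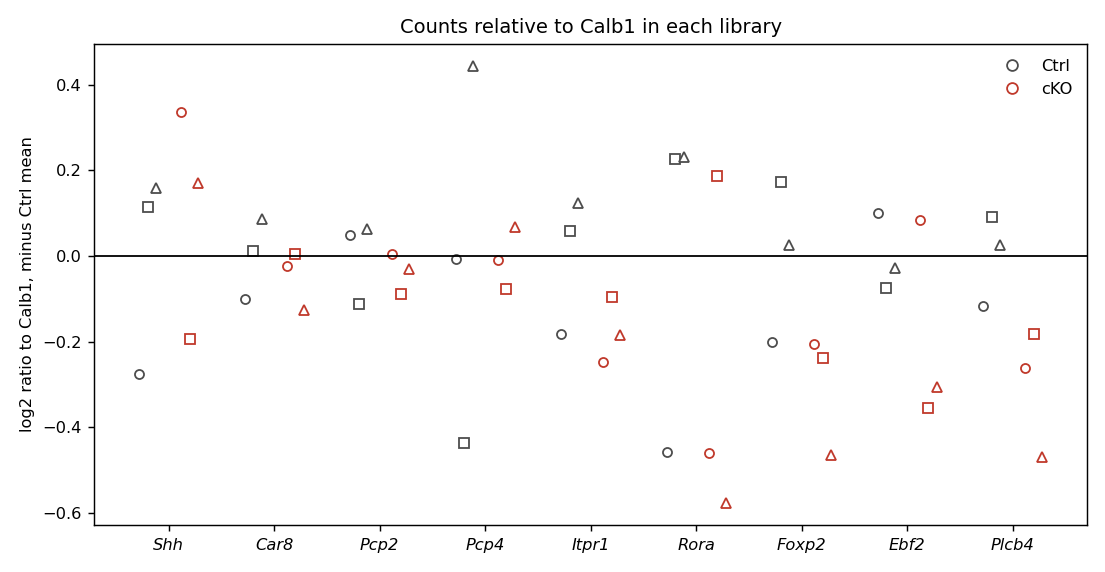
Log2 ratio of the counts of 9 genes to those of *Calb1* in each library, drawn as the difference from the Ctrl mean, with Ctrl in grey, cKO in red and circles, squares and triangles for libraries 1, 2 and 3 of each group. The groups overlap for 7 of the 9 genes, and the cKO points lie below all Ctrl points for *Foxp2* and *Plcb4*, which rose less than *Calb1*.

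Of 8 further transcription factors and cofactors of the lineage, 1 rose and 0 fell in cKO, and their fold changes had both signs, since 4 were higher and 3 lower in cKO at an adjusted p under 0.01, against 7.24% of all genes tested for the lower ones. Their median log2 fold change was 0.20. *Skor2*, a corepressor found in Purkinje cells, was the one that rose, with a log2 fold change of 0.78 ± 0.06 (SE). *Ebf1* stood at 0.45 ± 0.06, and the LIM factor *Lhx1* at -0.38 ± 0.05 and *Ebf3* at -0.43 ± 0.06, all past the p threshold and not the fold threshold.

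Of 23 other genes of the IP3 and calcium signalling path, 4 rose and 0 fell, with a median of 0.16. *Itpka*, which phosphorylates IP3, rose with a log2 fold change of 1.01 ± 0.09 (SE), from 20.1 to 22.6 CPM in Ctrl to 40.4 to 46.0 CPM in cKO. *Inpp5a*, the phosphatase that removes IP3, rose by 0.51 ± 0.06. *Camk2a*, named after its value was seen, rose by 0.59 ± 0.10. *Atp2b2*, a calcium pump of the plasma membrane, stood at 0.46 ± 0.06 and so under the fold threshold. Of 14 further genes known from Purkinje cells, many of them high in the adult, 5 rose and 0 fell, with a median of 0.43. Among these were the G protein regulator *Rgs8* with a log2 fold change of 0.76 ± 0.06, *Aldoc*, the enzyme that marks Purkinje cell stripes, with 0.67 ± 0.06, *Arhgef33* with 0.59 ± 0.06 and, named after its value was seen, the glutamate transporter *Slc1a6* with 0.72 ± 0.08. Some of these genes are also expressed in other cells, *Aldoc* in astroglia for example.

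Of 18 paralogues of the 10 genes that were tested, 3 rose and 0 fell, with a median log2 fold change of 0.02, and *Dhh*, with at most 8 reads in a library, did not pass the filter. The 3 were *Calb2*, calretinin, with 0.57 ± 0.10 (SE), *Car11* with 0.56 ± 0.07 and *Ebf4* with 0.73 ± 0.09. The hedgehog ligand *Ihh* stood at -0.43 ± 0.43 on at most 1.17 CPM. The other IP3 receptors *Itpr2* and *Itpr3* stood at 0.39 and -0.02, and *Rorb* at -0.18. *Foxp1*, *Foxp3* and *Foxp4* gave 0.06, -0.21 and 0.33, and *Plcb1*, *Plcb2* and *Plcb3* gave -0.28, 0.33 and 0.23. *Car10* and *Pcp4l1* were at -0.11 and -0.24. Among the uncalled paralogues named here, *Itpr2*, *Foxp4*, *Ebf1* and *Ebf3* passed the p threshold.

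Around the ligand, a gene for its release rose, while genes for its reception and its response fell. Of 5 genes that modify or release hedgehog ligands, 1 rose and 0 fell, with a median log2 fold change of 0.29. It was *Scube2*, which helps release the lipid-bound ligand, with 0.77 ± 0.08 (SE), and the related *Scube1* and *Scube3* stood at 0.29 and 0.50 without passing the p threshold. *Hhat*, which attaches palmitate to the ligand, stood at -0.14. Of 7 genes that receive or relay the signal, 0 rose and 3 fell, with a median of -0.26. These were the coreceptors *Boc* at -1.22 ± 0.07 and *Gas1* at -0.51 ± 0.08 and the transcription factor *Gli2* at -1.38 ± 0.09, while *Smo* stood at -0.26 ± 0.05. *Gli2* is also counted among the granule lineage markers. Of 8 genes known as targets of the pathway, 0 rose and 6 fell, with a median of -0.73, although *Shh* itself rose. Of all genes tested, 3.03% were upregulated and 3.63% downregulated. In bulk RNA, a smaller share of the granule neuron progenitors that receive the ligand and a lower response per cell cannot be told apart. *Ccnd1*, *Ccnd2* and *Sfrp1* had log2 fold changes of -1.05 ± 0.05, -0.84 ± 0.06 and -1.31 ± 0.08. The general readouts *Gli1* and *Ptch1*, named after their values were seen, stood at -0.53 ± 0.08 and -0.33 ± 0.04, the second under the fold threshold.

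**Figure D4:**
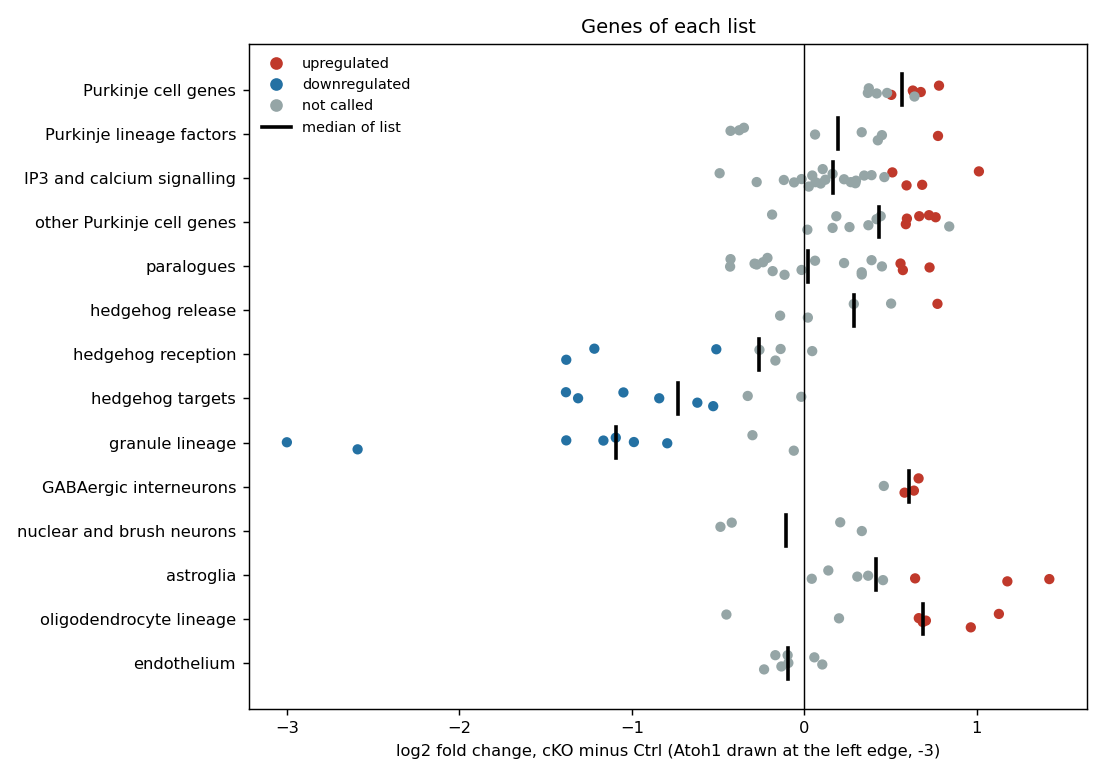
Log2 fold change of every tested gene in 14 gene lists, one point per gene, red where upregulated, blue where downregulated and grey otherwise, with a black bar at the median of each list and *Atoh1* (-6.40) drawn at -3. The 10 Purkinje cell genes lie to the right of 0, the hedgehog targets to its left, and the other Purkinje lineage factors on both sides.

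Markers of several other cell types differed between the groups too. Of 9 granule lineage markers 0 rose and 7 fell, with a median log2 fold change of -1.09, and their summed level was 3216 to 3365 CPM in Ctrl and 1985 to 2103 CPM in cKO. Of 4 markers of GABAergic interneurons 3 rose, and their sum was 259 to 262 CPM in Ctrl and 389 to 398 CPM in cKO. Of 8 astroglial markers 3 rose, the sum being 3588 to 3634 and 4676 to 5034 CPM, and of 7 oligodendrocyte lineage markers 5 rose, the sum being 502 to 538 and 658 to 704 CPM. The oligodendrocyte lineage marker *Pdgfra*, named after its value was seen, was lower in cKO at -0.45 ± 0.05 (SE). Its adjusted p was 0.000307, and it missed only the fold threshold. Of 6 GABAergic progenitor markers 1 fell, *Ptf1a* at -1.18 ± 0.24 (SE), with sums of 136 to 143 and 156 to 163 CPM. Of these 6, 4 were lower in cKO, and the higher sum came with *Kirrel2*, at a mean of 69.7 CPM in Ctrl and 96.6 CPM in cKO. Of 4 markers of nuclear and unipolar brush neurons 0 were called, with sums of 171 to 185 and 136 to 140 CPM. Of 7 endothelial and 5 microglial markers 0 were called, with sums of 372 to 412 and 362 to 378 CPM and of 59.2 to 60.6 and 72.7 to 83.8 CPM. Among 6 meningeal markers 2 rose, with sums of 389 to 415 and 572 to 687 CPM, and of 6 choroid plexus markers 0 were called, with sums of 75.1 to 141 CPM in Ctrl and 12.7 to 744 CPM in cKO. Of the erythrocyte markers 5 were tested and 0 called, with sums of 98.7 to 106 and 82.4 to 118 CPM. No hindbrain marker passed the filter, the sums being at most 1.85 CPM, and of 6 midbrain markers 1 passed, *Pou4f1*, while *Foxa1* was at 0 in every library. Where a list had 0 calls in edgeR, genes at an unadjusted p under 0.05 numbered 2 lower for nuclear and brush neurons, 1 lower for endothelium, 1 higher for microglia, 3 higher for choroid plexus and 0 for erythrocytes. Among these, *Slc17a6* at -0.49 and *Eomes* at -0.42, of the nuclear and brush neurons, passed the adjusted p threshold and not the fold threshold. The same held for *Csf1r* of the microglia, at 0.39. DESeq2 called the same numbers of rises and falls in each list, except that 3 meningeal markers rose. These bulk libraries do not give the share of each cell type in the tissue. The study's single-nucleus RNA-seq of P1 cerebella, with a pooled library per genotype, reported a lower percentage of granule neuron progenitors in mutants. The part of cell type shares in the values of the Purkinje cell genes was not tested.

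Under 18 other ways of processing or subsetting the libraries, all 10 Purkinje cell genes stayed above 0. *Calb1*, *Car8* and *Pcp2* were upregulated in 18 of the 18, *Itpr1* in 10, *Shh* in 9, *Pcp4* in 5, *Ebf2* in 3 and *Rora* in 1, and *Foxp2* and *Plcb4* in 0. The lowest and highest log2 fold changes were 0.62 and 0.74 for *Calb1*, 0.57 and 0.68 for *Car8*, and 0.59 and 0.70 for *Pcp2*. For *Shh* they were 0.51 and 0.89, and for *Rora* 0.11 and 0.61.

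**Figure D5:**
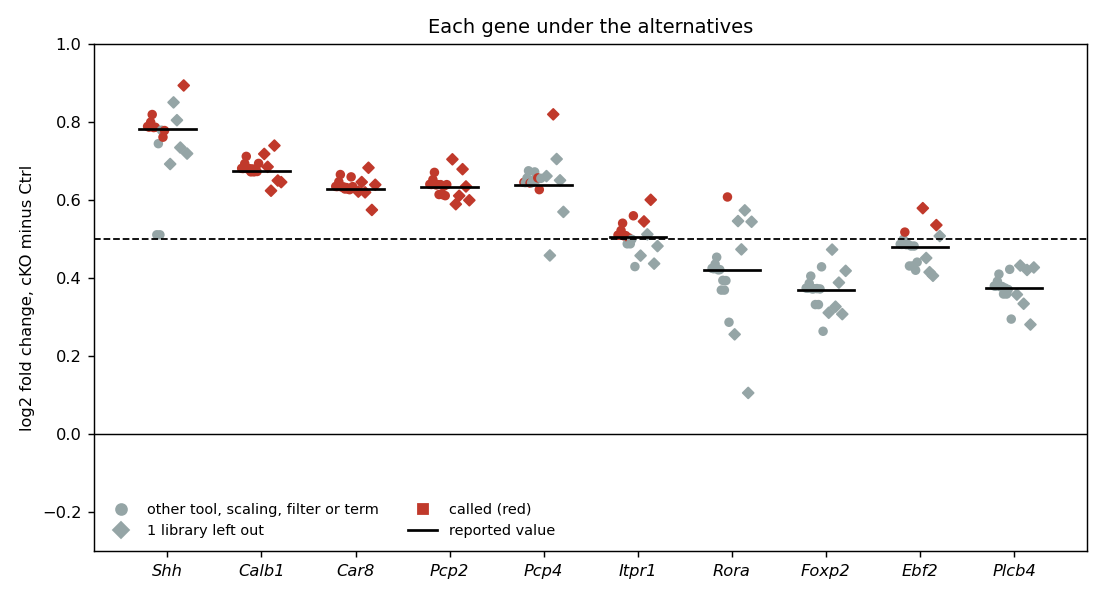
Log2 fold change of each Purkinje cell gene, cKO minus Ctrl, under 18 alternatives, with circles for another tool, scaling, filter or model term, diamonds for 1 library left out, red for values past both thresholds, a black bar for the reported value and a dashed line at the fold threshold of 0.5. *Calb1*, *Car8* and *Pcp2* are red throughout, while the points of *Rora* spread from 0.11 to 0.61.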

How the data were processed

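Poly(A) RNA of P1 cerebella was sequenced as paired-end reads in 6 libraries, which were grouped by their labels. Reads were cleaned by the authors, mapped on mm10 by HISAT2 2.0.5 and summed over genes by featureCounts 1.5.0-p3 (versions from the submitters' processing notes). The deposited counts are not normalized, and the deposited FPKM values were derived from them and the gene length. Annotation release, strand setting and treatment of multimapping reads are not given in the sources used here. The table gives all 10 genes the coordinates of GENCODE M21 (GRCm38).

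Counts were fitted on group alone with edgeR 4.0.16 under R 4.3.3, using filterByExpr, TMM, glmQLFit and glmQLFTest. Tested genes held 99.8% of the counts. Genes were called at an adjusted p under 0.01 and an absolute log2 fold change over 0.5, the thresholds of the study's methods. Alternatives used DESeq2 1.42.0, limma 3.58.1 on log2 FPKM, other scalings and filters, the replicate number as a block, a Y-chromosome covariate, and each library left out. Removal of the gene span trend was chosen after seeing the data. On simulated counts for this comparison, edgeR recovered 200 of 200 changed genes with 1 false call among 17302. The planted changes were all larger than the fold changes of the 10 genes, and all genes shared a single dispersion. The recovery therefore does not show how often changes near the fold threshold are called. Same-group libraries differed by a chi-square per gene of 3.63 to 10.0, so none was a copy. Poisson intervals of read numbers cover counting error only, and intervals of fold changes come from the edgeR fit and the spread between libraries.

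Named were the 10 genes, their tested paralogues, overlapping genes with at least 10 reads, *Tox3* and *Atoh1*, and at most the 4 genes of smallest p in each other list. Some genes that this rule names are not reported here, though list counts and medians include them. The 10 genes and the lists were chosen with earlier results of these data known.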

Additional observations from a re-analysis of the deposited data

How the results depend on the processing

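The number of upregulated Purkinje cell genes was 5 and went to 3 with limma on log2(FPKM + 1), with or without the filter on low values, and ranged from 3 to 5 with 1 library left out, 3 being the count without cKO3. It was 4 to 7 under the other alternatives, and 0 were downregulated under all of them. The log2 fold change of *Shh* missed the p threshold at 0.51 with limma on log2(FPKM + 1), filtered or not, at 0.74 with log2(FPKM + 0.1), and ranged from 0.69 to 0.89 with 1 library left out, where it kept its call only without cKO2. The replicate numbers are shared between the groups, but the labels do not say that they mark a litter. Libraries of the same number had correlated deviations of 0.29, 0.33 and -0.17, and not every library correlated best with its own number, so they were not taken as pairs. With the replicate number as a block, 4 of the 10 genes were upregulated, *Calb1*, *Car8*, *Pcp2* and *Pcp4*, and *Shh* stood at 0.78 with an adjusted p of 0.0103. Over all genes tested, 530 were upregulated and 635 downregulated, against 330 and 441 with limma on log2(FPKM + 1), 176 and 286 with it unfiltered, and 349 and 492 without cKO3. Depth limits *Shh* most, with 55 to 130 reads per library.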
